A study of Homo sapiens with 2 samples.

Results

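The promoters of 44 nuclear receptor genes, out of 19819 protein-coding genes, were described in H3K27ac HiChIP data of HCT116 cells. HCT116 is a colorectal cancer cell line, obtained here from the ATCC and grown without any treatment named in the labels. HiChIP cuts crosslinked chromatin with a restriction enzyme, here MboI, ligates the ends that lie close together, and enriches the ligated fragments with an antibody, here against acetylated lysine 27 of histone H3, a mark of active promoters and enhancers. The data held 1 condition in 2 replicates, so no condition was compared with another. Nothing in the labels or the methods stated that the replicates came from separate cultures, so the spread between them may be technical.

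The receptors were taken from a given list that does not hold every member of the family. The promoter of a gene was taken as every anchor, that is every fixed interval between which the deposited tables count joined read pairs, that overlapped the transcription start site of the canonical transcript ± 2.5 kb. Promoter depth was the number of counts that joined these anchors with other anchors with midpoints up to 1 Mb away. The deposited tables held 1885481 counts in replicate 1 and 2131466 in replicate 2, over 250217 anchors of chromosomes 1 to 22 and X. The start site itself lay inside an anchor for 26 receptors. The receptor promoters overlapped 43 anchors, which were joined with other anchors by 724 counts in replicate 1 and 847 in replicate 2. These counts fell on 1053 anchor pairs, of which 798 had a single count over both replicates, and 155 pairs were found in both. Intervals given below are exact Poisson 95% intervals, and they cover counting error only, since the tables hold no molecular identifiers.

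Nuclear receptors are transcription factors, many of which are switched by small lipophilic ligands such as steroid and thyroid hormones, retinoids, vitamin D, bile acids and fatty acids. Many of them bind DNA as a dimer with a retinoid X receptor (RXR), holding corepressors without ligand and coactivators with it, whereas steroid receptors act mostly as dimers of their own kind and orphan receptors have no settled physiological ligand. In the intestinal epithelium, members of the family are known for the control of vitamin D, bile acid and lipid handling and of differentiation.

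Of the 44 receptors, 15 (34.1%) had a deep promoter, defined as a summed depth in the upper quartile of all protein-coding promoters (39 counts or more), compared with 26.2% of all promoters. Depth below the lower quartile (10 counts) was found for 9 receptors (20.5%), compared with 23.8%, and 7 of these 9 (15.9% of the receptors) had no anchor at all, compared with 16.9%. The remaining 20 lay between the quartiles. The median summed depth was 31 counts over the receptors and 24 over all promoters. The order turned when the anchor that holds the start site was taken alone, with a median of 8 counts per replicate over the receptors and 8.5 over all promoters, and with depth divided by the regional median 11 of 44 were deep, no larger a share than the 25.01% of all promoters. No test of the list against other genes was made, so these shares only describe where the receptors stood.

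NR4A2 was the deepest receptor promoter, and its summed interval (148 to 201 counts) did not overlap that of any other receptor. NR4A1, ESRRA, NR6A1 and NR2F1 followed with 94, 91, 84 and 80 counts, and their intervals overlapped one another, so that their order is not resolved at this depth. At the border of the upper quartile stood NR3C2 with 39 counts and NR2E1 with 38, and at the border of the lower quartile NR1H3 with 10 and NR1H4 with 6. The 5 deepest receptors held 33.2% of all counts of the 44, and NR4A2 alone 11.0%. The replicates ranked the receptors alike, with a Spearman rho of 0.767 over the 37 with counts, given as a description across genes of the same libraries. In a two-sided exact binomial test of the share of replicate 1, with Benjamini-Hochberg adjustment over 16432 promoters, no receptor differed between the replicates, and the share of all promoters that did was also 0%. Without adjustment, 1 receptor passed 0.05, NR2E3 with 5 and 18 counts (same exact test, unadjusted p = 0.0213), as did 651 of all promoters.

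**Figure D1:**
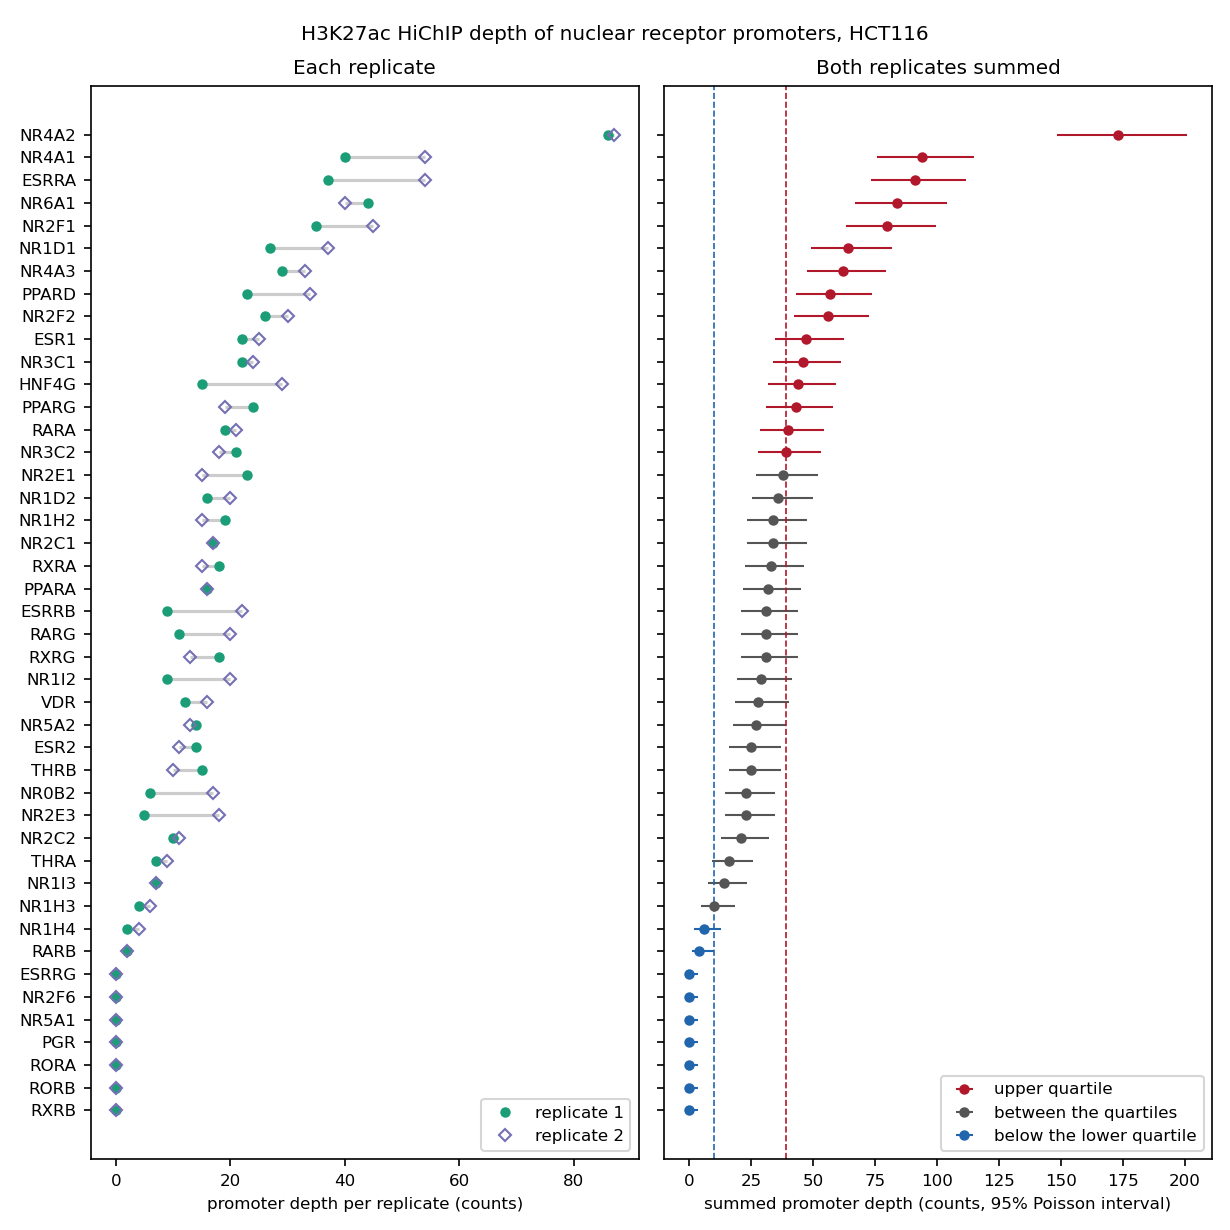
Promoter depth of the 44 receptors in counts, per replicate on the left and summed over both replicates on the right with exact Poisson 95% intervals as bars and the quartiles of all protein-coding promoters, 10 and 39 counts, as dashed lines. NR4A2 stands alone at 173 summed counts, and the 7 receptors without an anchor lie at 0.

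Sequences of 200 bases around the canonical start site, from 170 bases before it to 30 from it on, are shown for the 3 deepest promoters and for the 3 low promoters richest in CpG, so that base composition can be read beside depth. They were read from the hg19 genome, the build of the files, and are written 5′ to 3′ on the strand of the gene with CpG in capitals.
NR4A2, chr2:157189204-157189403, minus strand: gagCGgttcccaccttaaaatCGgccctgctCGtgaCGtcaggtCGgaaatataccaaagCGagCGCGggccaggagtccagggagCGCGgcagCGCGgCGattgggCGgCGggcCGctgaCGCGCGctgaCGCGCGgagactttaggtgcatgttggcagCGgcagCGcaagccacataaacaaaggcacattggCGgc
NR4A1, chr12:52445056-52445255, plus strand: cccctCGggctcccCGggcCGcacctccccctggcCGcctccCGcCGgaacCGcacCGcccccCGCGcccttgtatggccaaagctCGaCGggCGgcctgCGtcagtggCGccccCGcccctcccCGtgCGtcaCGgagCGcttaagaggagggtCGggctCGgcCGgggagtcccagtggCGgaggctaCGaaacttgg
ESRRA, chr11:64072826-64073025, plus strand: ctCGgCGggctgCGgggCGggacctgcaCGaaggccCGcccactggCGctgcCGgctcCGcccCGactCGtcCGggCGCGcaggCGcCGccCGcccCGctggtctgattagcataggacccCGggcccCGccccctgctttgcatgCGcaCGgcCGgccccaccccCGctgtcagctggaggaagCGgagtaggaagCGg
NR2F6, chr19:17356699-17356898, minus strand: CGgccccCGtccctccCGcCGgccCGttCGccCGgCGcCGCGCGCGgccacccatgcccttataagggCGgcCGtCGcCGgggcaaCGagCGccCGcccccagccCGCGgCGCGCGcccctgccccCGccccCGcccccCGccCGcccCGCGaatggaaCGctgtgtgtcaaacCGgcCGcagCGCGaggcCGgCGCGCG
RORA, chr15:61521472-61521671, minus strand: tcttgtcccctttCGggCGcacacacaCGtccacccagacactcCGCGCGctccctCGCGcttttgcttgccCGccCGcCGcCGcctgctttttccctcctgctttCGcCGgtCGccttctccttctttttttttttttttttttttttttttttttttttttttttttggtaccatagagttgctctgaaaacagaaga
RXRB, chr6:33168413-33168612, minus strand: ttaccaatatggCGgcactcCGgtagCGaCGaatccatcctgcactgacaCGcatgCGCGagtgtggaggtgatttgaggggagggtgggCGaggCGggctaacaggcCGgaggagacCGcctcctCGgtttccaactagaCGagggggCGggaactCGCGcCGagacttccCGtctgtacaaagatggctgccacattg
The first 3 held 25, 25 and 26 CpG in these 200 bases. NR2F6 held 39 and RORA and RXRB 15 and 18, although none of these 3 promoters had an anchor. Over 500 bases on either side of the start site, the median number of CpG was 80 in the 15 deep receptor promoters, 56 in the 20 between the quartiles, 38 in the 9 low ones and 66 in all promoters. The low group is mostly the 7 receptors without an anchor, whose depth was not measured and whose median was 57. NR1H4 and RARB, the low promoters with an anchor, held 10 and 38. Depth had a Spearman rho with this number of CpG of 0.352 over the 37 receptors with counts. Over 16432 promoters it was 0.183, both given as descriptions across genes. The number of GATC, the site cut by MboI, within 5 kb had a median of 11 in the receptors and 12 in all promoters. The palindrome TGACGTCA, the full cAMP response element, was searched from 250 bases before the start site to 50 from it on, which on a palindrome covers both strands. It was found in 3 of 44 receptor promoters (6.82%), NR4A2, NR6A1 and NR2E1, compared with 2.68% of all promoters, and it starts at position -137 in NR4A2, where it can be read in the sequence above. AGGTCA, the core hexamer bound by many nuclear receptors, was found on either strand in 5 (11.4%), compared with 11.2%. TGACTCA, the AP-1 site, was found on either strand in 3 (6.82%), compared with 3.57%.

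The NR4A receptors are immediate early genes, induced within minutes to hours by many signals, whose proteins act without a classical ligand. All 3 had deep promoters, compared with 26.2% of all promoters, and this held for no other class. The median of the 3 summed depths was 94 counts, compared with 24 over all promoters. NR4A2 (ENSG00000153234.16_12, minus strand, start site at chromosome 2, 157189233) lay in a single anchor of 15161 bp at 157187978–157203138, which holds exon 1 and the sequence upstream. Its depth was 86 counts in replicate 1 and 87 in replicate 2 (mean 86.5 ± 0.707, SD, n = 2). It was joined with 98 other anchors, and 97.7% of its counts reached 20 kb or more and 78.6% reached 100 kb. The width of the anchor moves with this depth, which per kb was 11.4 counts for NR4A2, compared with 23.7 for NR4A1. NR4A1 (ENSG00000123358.20_14, plus strand, start site at chromosome 12, 52445226) had 40 counts in replicate 1 and 54 in replicate 2 (mean 47 ± 9.90, SD, n = 2) in an anchor of 3969 bp that holds exon 1. Of its counts, 63.8% reached 20 kb. NR4A3 had 29 and 33 counts, of which 90.3% reached 20 kb, in an anchor of 6509 bp. NR4A1 thus had a larger share of its counts within 20 kb than NR4A2 and NR4A3, which spread theirs over many distant anchors. Over all promoters with counts, the median share at 20 kb or more was 77.2%. Distances were taken between midpoints, so the wide anchor of NR4A2 left less room for partners within 20 kb. The part of anchor width in this difference was not tested.

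**Figure D2:**
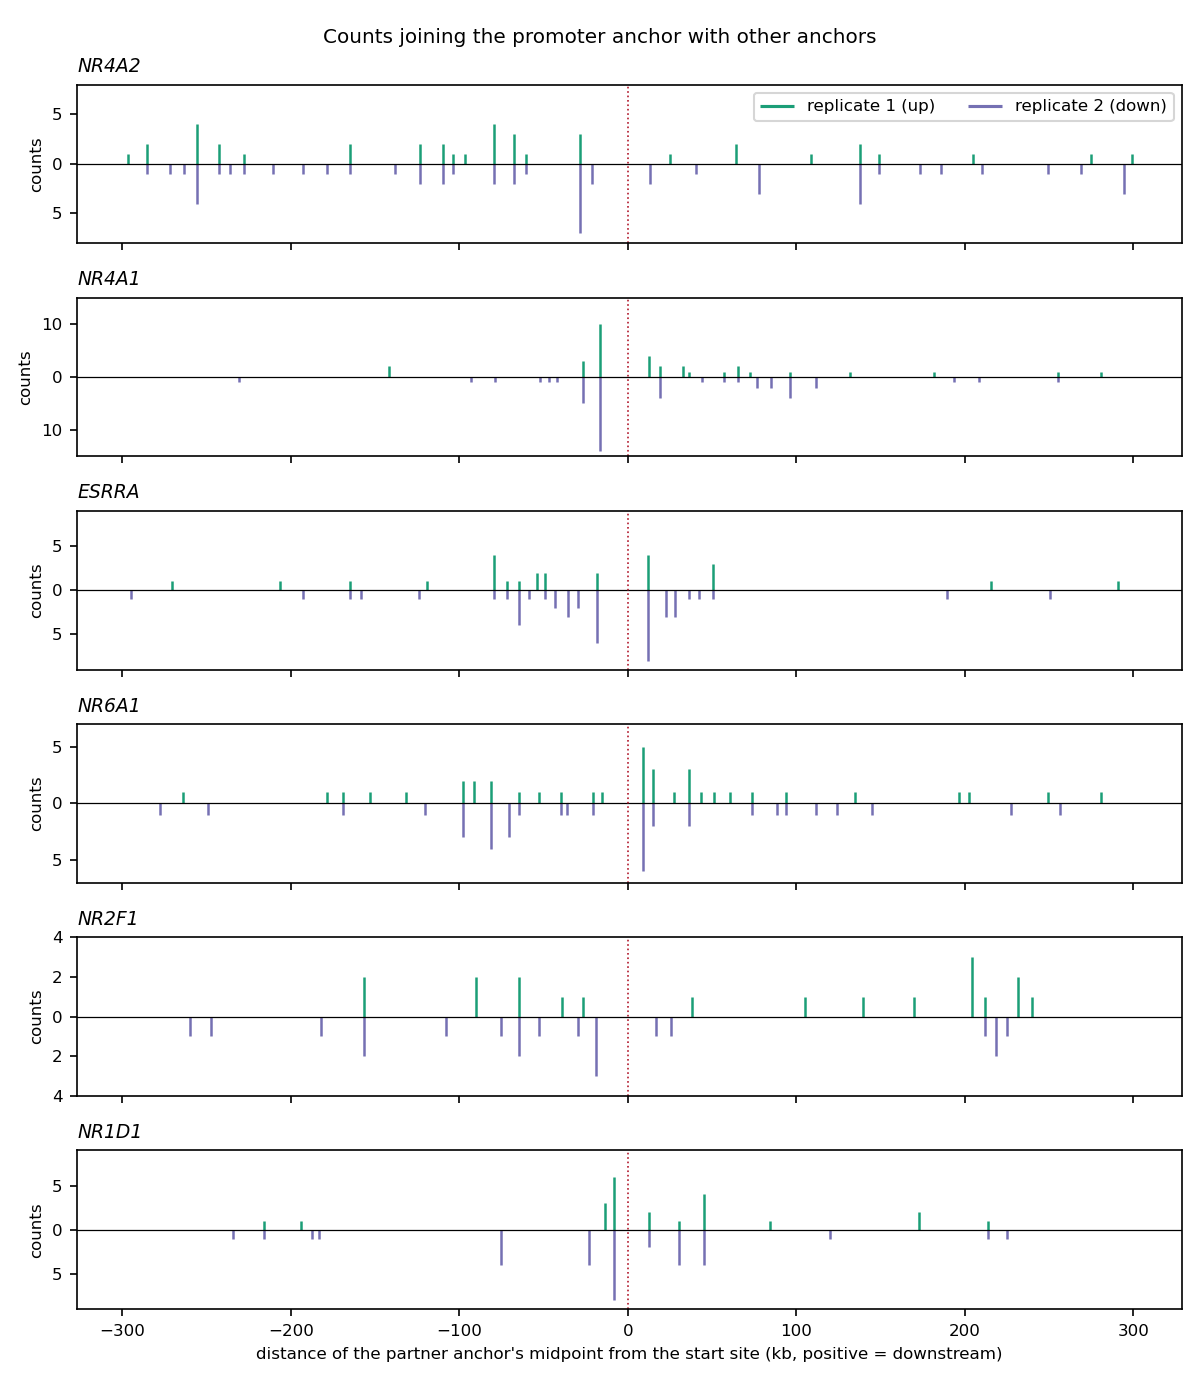
Counts between the promoter anchors of the 6 deepest receptors and other anchors, against the distance of the partner from the start site in kb, within 300 kb, with replicate 1 drawn upwards and replicate 2 downwards. NR4A1 has 1 dominant partner upstream with 10 and 14 counts, while the counts of NR4A2 and NR2F1 are scattered over many partners.

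A strong loop was taken as an anchor pair with a summed count of at least 5. Such loops were found for 15 of 44 receptors (34.1%), compared with 29.7% of all promoters, and strong loops of at least 20 kb for 7 (15.9%), compared with 9.75%. All strong loops of the 15 receptors had counts in each replicate, which a summed count of at least 5 makes likely by itself. These loops numbered 33, and 16 of them were 20 kb or longer. NR4A2 and NR6A1 had 5 each, NR4A1 and ESRRA 4 each, NR1D1 3, NR2F2 and PPARD 2 each, and NR3C1, HNF4G, PPARG, RARA, NR1H2, NR2C1, RARG and RXRG 1 each. Of the deep receptors, 11 of 15 had a strong loop, compared with 74.8% of all deep promoters. The 4 without one were NR2F1, NR4A3, ESR1 and NR3C2, in each of which the highest summed count of a pair was 4. NR1H2, NR2C1, RARG and RXRG had a strong loop at a depth between the quartiles. The threshold sets the number of receptors with a strong loop. A count of 5 within replicate 2 alone was reached by 8 receptors, compared with 11.1% of all promoters. Within replicate 1 alone it was reached by 4 (NR1D1, NR2F2, NR4A1 and NR6A1), compared with 8.02%. For loops of at least 20 kb these numbers were 2 and 0, compared with 2.70% and 1.58%. NR1D1, NR4A1 and NR6A1 were the receptors with a count of at least 5 in each replicate, compared with 3.54% of all promoters.

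The partner anchor of a strong loop lay at another annotated start site of the same receptor in 6 loops, elsewhere in the same gene in 10, at the promoter of another gene in 7, in the body of another gene in 4 and in no protein-coding gene in 6. An expected count was computed for each loop from its length and from how deep both its anchors were. Of the 33 strong loops, 13 had an interval wholly above their expected count. These loops were picked for their counts, so this number is a description and no test. It was 7 when the expectation was computed without removing the loop's own count from the depth of its anchors (own count kept). No share over the strong loops of all promoters is set beside either number, so neither can be read as an excess. These 7 were the NR4A1 loop of 16.2 kb, the NR4A2 loop to GPD2, the NR1D1 loop to MED24, the NR6A1 loop to WDR38, the RARA loop and the ESRRA loops to NUDT22 and FKBP2. No receptor loop passed an adjusted p of 0.01 in a one-sided exact Poisson test, adjusted by Benjamini-Hochberg over all 51094598 pairs of anchors up to 2 Mb apart. Over all pairs, 37 did (7.24e-05%). Without adjustment, 221 receptor pairs were under 0.05, out of 1053 with a count, and the smallest adjusted p of a receptor loop was 0.316. A single count can pass where little is expected, as for a RARB pair with 1 count against 0.00903 expected. The number of 221 therefore does not measure an excess, and no share over all pairs is set beside it. At this depth the test has little reach for single loops, as counts simulated for chromosome 1 gave calls for 22 of 200 pairs at a 5-fold raise and for 108 of 200 at a 10-fold raise. The simulation adjusted over 4918046 pairs only, and its raised pairs were drawn from pairs with larger expected counts. The reach for pairs with smaller expected counts was not simulated.

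**Figure D3:**
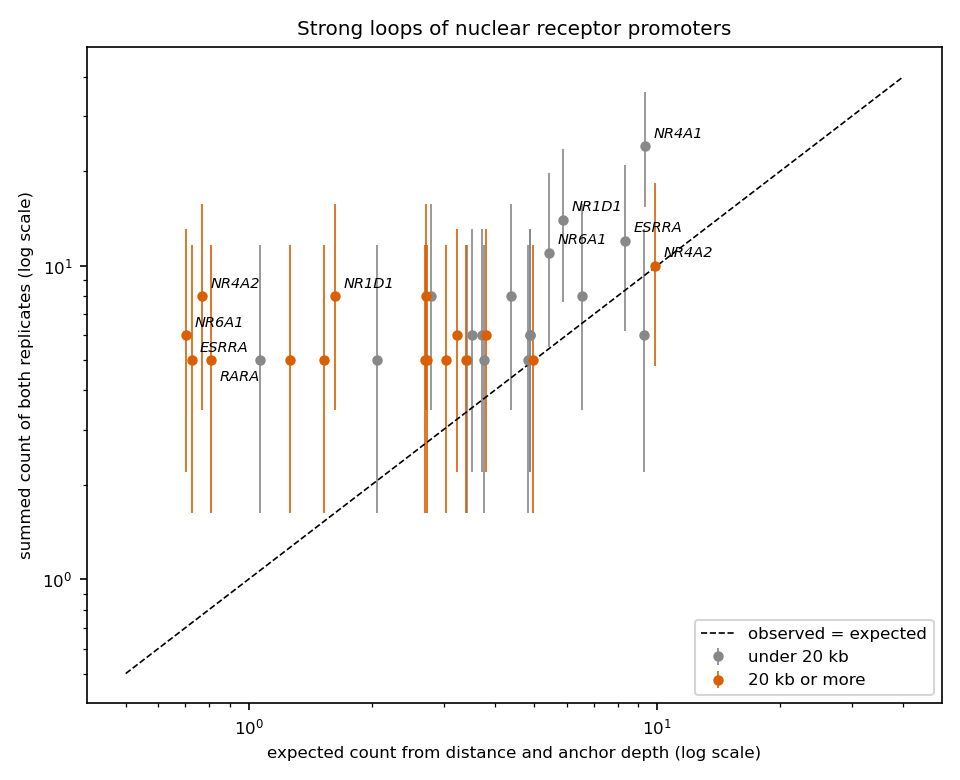
Summed counts of the 33 strong loops, on a log scale, against the counts expected from distance and anchor depth, also on a log scale, with exact Poisson 95% intervals as bars and loops of 20 kb or more in orange. All loops have 5 or more counts by definition, and the loop of NR4A2 to the GPD2 gene lies farthest above the dashed line of equality, at 8 counts against 0.771 expected.

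The strongest loop of any receptor joined start regions of NR4A1 itself. The anchor at the canonical start was joined with the anchor at 52425819–52431912, 16.2 kb upstream, by 10 and 14 counts in replicates 1 and 2. Their sum was 2.57 times the expected one (1.64 to 3.82), or 1.58 times with the own count kept. The partner holds other annotated NR4A1 starts, among them 52431499, so this loop lay between alternative promoters of a single gene. The canonical anchor was also joined with 52417207–52420200, 26.3 kb upstream in the longer NR4A1 transcripts, by 3 and 5 counts (ratio 2.94, 1.27 to 5.79, or 2.30 with the own count kept, which ends the excess of its interval over the expected count). Its loop to the promoter of ATG101, which encodes an autophagy factor, had 2 and 4 counts at 19.2 kb (ratio 1.23, 0.452 to 2.68), and a loop to 52538381–52544807 at 96.6 kb, in no gene, had 1 and 4 (ratio 1.01, 0.327 to 2.35). The upstream start region was itself joined with the ATG101 promoter at 35.3 kb, by 6 and 4 counts (ratio 3.56, 1.71 to 6.56). Its loops to 52417207–52420200 and to 52538381–52544807 had 3 and 4 counts each, with ratios of 0.804 (0.323 to 1.66) and 1.31 (0.526 to 2.69), so loops of the upstream anchor lay both above and within the expected range.

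NR4A2 had the longest strong loops. Its anchor was joined with 157443900–157445528, 249 kb away, by 4 counts in each replicate. Their sum was 10.4 times the expected one (4.48 to 20.5), the highest ratio among the 33 strong loops. With the own count kept, the ratio was 7.24. The unadjusted p was 1.56e-06 in the exact Poisson test, the adjusted p 0.316. The partner lay past the end of the canonical transcript of GPD2, which encodes a mitochondrial glycerol-3-phosphate dehydrogenase, within the span of longer GPD2 transcripts. The other 4 strong loops of NR4A2, at 22.1, 61.4, 73.2 and 144 kb, joined anchors in no protein-coding gene, with 10, 5, 6 and 6 summed counts, and their ratios of 1.01 to 1.85 had intervals that held the expected count. The loop with the highest count, 3 and 7 at 22.1 kb, was therefore no higher than its distance and the depth of its anchors gave. NR4A3 had no strong loop, and its highest summed count was 4, with 1 count in replicate 1 and 3 in replicate 2, for the loop to the promoter of STX17 at 86.7 kb (ratio 2.50, 0.680 to 6.39).

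Among the steroid receptors and related orphans, 4 of 8 had deep promoters and 2 had no anchor, compared with 26.2% and 16.9% of all promoters. ESRRA, an orphan receptor of mitochondrial and energy metabolism, had 37 and 54 counts in the replicates (mean 45.5 ± 12.02, SD, n = 2). Its anchor of 7936 bp at chromosome 11, 64067667–64075602, also holds the start site of CATSPERZ, so the counts of both promoters cannot be told apart. ESR1, the estrogen receptor alpha, had 22 and 25 counts in an anchor of 9541 bp, and NR3C1, the glucocorticoid receptor, had 22 and 24 in 7269 bp. NR3C2, the mineralocorticoid receptor, had 21 and 18 in an anchor that lay upstream of its start, and stood just at the threshold. ESR1 and NR3C2 were not deep over the regional median. With counts of at least 2 per replicate, ESR1, NR3C1 and NR3C2 were not deep either. ESR2 and ESRRB lay between the quartiles, with 14 and 11 and with 9 and 22 counts, and PGR, the progesterone receptor, and ESRRG had no anchor.

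ESRRA lies in a gene-dense stretch, and each of its 4 strong loops joined an anchor at promoters of other genes. The loop of 13.1 kb to an anchor with the promoters of PRDX5 and TRMT112, which also holds another annotated ESRRA start and exons 3 to 7, had 4 and 8 counts (ratio 1.44, 0.743 to 2.51). The loop of 17.1 kb to BAD, GPR137 and KCNK4 had 2 and 6 (ratio 1.22, 0.529 to 2.41). The loops to the promoters of NUDT22 and TRPT1 at 77.8 kb, with 4 and 1 counts (ratio 6.90, 2.24 to 16.1), and of FKBP2 at 63.5 kb, with 1 and 4 (ratio 3.96, 1.29 to 9.24), lay above their expected counts. The nearer loops had more counts and the farther ones higher ratios, and each of the farther ones rested on 4 counts of 1 replicate. NR3C1 had a strong loop of 8.81 kb to an anchor upstream of its canonical start, within its longer transcripts, with 2 and 3 counts (ratio 2.42, 0.786 to 5.65).

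RXR and their partners were the largest class, with 17 receptors, of which 3 were deep, 3 low and 6 had a strong loop. Over all promoters, these shares were 26.2%, 23.8% and 29.7%. The median summed depth of the class was 29 counts. PPARD, a fatty acid receptor known in the intestinal epithelium, was the deepest with 23 and 34 counts (mean 28.5 ± 7.78, SD, n = 2). PPARG, the adipogenic receptor that is also known in colon epithelium, had 24 and 19, and RARA, the retinoic acid receptor alpha, had 19 and 21. The anchors of RARA did not hold its start. RARA was no longer deep with a distance limit of 500 kb, promoters of ± 1 kb, the anchor that holds the start, or replicate 1 left out. PPARG also left with the last, and neither was deep over the regional median. PPARA, the third PPAR, had 16 counts in each replicate and thus lay below the threshold. Of the RXR themselves, RXRA had 18 and 15 counts and RXRG 18 and 13, while RXRB had no anchor and was thus not measured. RARG had 11 and 20 counts and RARB 2 and 2. The receptors for vitamin D (VDR, 12 and 16), oxysterols (NR1H2, 19 and 15), xenobiotics (NR1I2, 9 and 20) and thyroid hormone (THRB, 15 and 10, and THRA, 7 and 9) lay between the quartiles, as did NR1I3 (7 and 7) and NR1H3 (4 and 6). NR1H4, the bile acid receptor, was low with 2 and 4.

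The strong loops of this class were mostly short and inside the receptor genes. PPARD was joined with introns of its own gene at 18.1 kb by 3 and 3 counts (ratio 1.70, 0.624 to 3.70) and at 57.0 kb by 2 and 3 (ratio 1.85, 0.601 to 4.32). RARA had a loop of 32.5 kb to 38496133–38501693, an intronic anchor of the canonical transcript that holds other annotated RARA starts, with 2 and 3 counts (ratio 6.18, 2.01 to 14.4, or 4.75 with the own count kept). Loops to further own starts were found for RARG at 10.4 kb, with 2 and 6 counts (ratio 2.87, 1.24 to 5.66, or 1.88 with the own count kept), and for PPARG at 11.3 kb, with 1 and 4 (ratio 1.04, 0.337 to 2.42). RXRG was joined with an intron of its gene at 10.8 kb by 3 and 2 counts (ratio 4.69, 1.52 to 11.0, or 3.06 with the own count kept). NR1H2 was joined with an anchor that holds both its own exon 10 and the promoter of POLD1, the catalytic subunit of DNA polymerase delta, at 7.53 kb by 3 and 2 counts (ratio 1.46, 0.473 to 3.40). RARA, RARG and RXRG had intervals above the expected count, and with the own count kept RARA alone did.

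In the class of clock repressors and activators, the REV-ERB and ROR receptors, which compete for the same elements in circadian genes, only the REV-ERB promoters could be measured at their canonical starts. NR1D1, encoding REV-ERB alpha, had 27 and 37 counts (mean 32 ± 7.07, SD, n = 2) in an anchor of 3245 bp at chromosome 17, 38255828–38259072, and NR1D2, REV-ERB beta, had 16 and 20. RORA and RORB had no anchor at the canonical start, so REV-ERB and ROR promoters could not be compared there. NR1D1 was thus the deep member of the class, and NR1D2 lay just under the threshold with 36 summed counts.

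NR1D1 had strong loops on both sides. The loop to 38263602–38266549, 7.63 kb upstream in no gene, had 6 and 8 counts (ratio 2.38, 1.30 to 3.99, or 1.43 with the own count kept). The loop of 45.6 kb to the promoter of MED24, which encodes a subunit of the Mediator complex, had 4 counts in each replicate (ratio 4.92, 2.12 to 9.69, or 3.77 with the own count kept). The loop of 30.8 kb to 38221799–38231424 in THRA, an exonic anchor, had 1 and 4 (ratio 1.83, 0.595 to 4.28). THRA and NR1D1 lie tail to tail on opposite strands, and this anchor holds another annotated THRA start, 38225156, 5.94 kb from the canonical one. The same THRA anchor was joined with the MED24 promoter at 14.8 kb by 4 and 5 counts (ratio 1.95, 0.890 to 3.69). The MED24 promoter, the inner start region of THRA and the NR1D1 promoter were thus joined pairwise in both replicates, a set chosen after its values were seen.

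Of the other orphans, 4 of 12 were deep and 2 had no anchor, compared with 26.2% and 16.9% of all promoters. NR6A1, the germ cell nuclear factor, had 44 and 40 counts (mean 42 ± 2.83, SD, n = 2) in an anchor of 6095 bp at chromosome 9, 127529025–127535119. NR2F1 and NR2F2, the COUP-TF factors of development, had 35 and 45 and 26 and 30 counts. HNF4G, a relative of the main hepatic and intestinal HNF4 factor, had 15 and 29. Its anchor did not hold its start site, and its 44 summed counts stood beside a median of 39 for other promoters within 5 Mb. It was not deep over this regional median, with the anchor that holds the start, or without replicate 2. Among the rest, NR2E1 had 23 and 15 counts and NR2C1 17 and 17, while NR5A2, which is known in intestinal crypts, had 14 and 13. NR0B2, which represses bile acid synthesis genes, had 6 and 17, NR2E3 had 5 and 18 and NR2C2 10 and 11. NR0B2 and NR2E3 were among the receptors with the widest gaps between replicates, yet neither passed the adjusted test.

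The strongest loop of NR6A1, to an intronic anchor 7.49 kb away, had 5 and 6 counts (ratio 2.02, 1.01 to 3.62, or 1.19 with the own count kept). The loop of 82.5 kb to the promoter of WDR38 had 2 and 4 (ratio 8.55, 3.14 to 18.6, or 6.42 with the own count kept), and the loop of 99.5 kb to ARPC5L, a subunit of the actin-nucleating Arp2/3 complex, had 2 and 3 (ratio 3.27, 1.06 to 7.64, or 2.83 with the own count kept). With the own count kept, the interval of the WDR38 loop alone among these lay above the expected count. The loops to an anchor with exon 2 at 35.0 kb and to an intron at 13.1 kb had 3 and 2 counts each, within the expected range. NR2F2 was joined with its own exon 3 region at 5.90 kb by 6 and 2 counts (ratio 1.83, 0.790 to 3.60) and with an own start site at 7.22 kb by 3 and 3 (ratio 0.647, 0.237 to 1.41). HNF4G and NR2C1 each had a strong loop of under 10 kb with 1 and 5 counts and intervals that held the expected count. NR2F1 differed from these, as 95% of its counts reached 20 kb and no pair had more than 4. Its loops with the highest counts, 2 and 2 each, were at 155 kb (ratio 5.34, 1.45 to 13.7) and 62.5 kb (ratio 2.28, 0.620 to 5.83), both to anchors in no gene.

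The receptors without an anchor at the canonical start were ESRRG, NR2F6, NR5A1, PGR, RORA, RORB and RXRB. A summed count of 0 allows a depth of up to 3.69 counts by the exact Poisson interval, but where no anchor was defined no count could be recorded, so these zeros do not measure contact. The nearest anchor lay at 3.12 kb for RORA, 3.73 kb for NR5A1, 8.23 kb for RORB, 14.3 kb for PGR, 15.02 kb for ESRRG and 17.5 kb for NR2F6. The start of RXRB was 279 kb from the nearest anchor, inside a stretch of 4.97 Mb on chromosome 6 (28477725–33447356) that held no anchor and 183 protein-coding promoters. The absence of RXRB was therefore shared with its whole neighbourhood, whose span covers the major histocompatibility complex. NR2F6 was different, as 106 anchors lay within 500 kb of its start, against a median of 113 for all promoters. With all annotated protein-coding starts of a gene, NR2F6, PGR and RXRB remained without an anchor (3 of 44, with 13.7% of all genes).

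Depth depended on the choice of start site in some receptors, which had a median of 5 annotated start positions, compared with 3 over all genes. In 18 of 44, another start was deeper than the canonical one, and in 12 it was more than 1.5 times as deep. The same shares over all genes were not computed, and more starts give more chances of a deeper one. The 18 include ESRRG, NR5A1, RORA and RORB, which had no anchor at the canonical start. THRA rose from 16 counts to 58 at its inner start (27 and 31 in the replicates), RXRA from 33 to 59 (23 and 36) and RARG from 31 to 49 (25 and 24), which placed all 3 above the upper quartile computed in the same way, whereas NR3C2 fell below it. RARA reached 68 counts (41 and 27) and PPARG 67 (30 and 37). NR5A1, the steroidogenic factor SF-1, had 28 counts (13 and 15) at a start 6.41 kb away, and a loop of 11.9 kb from there within its gene had 3 and 3 counts (ratio 7.25, 2.66 to 15.8). ESRRG had 28 (13 and 15), RORA 27 (13 and 14) and RORB 9 (4 and 5) at starts 414, 636 and 118 kb from the canonical ones. NR1H4 had 22 (9 and 13). Taking the highest of several starts can only raise a value, so these depths are set beside one another and not tested.

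**Figure D4:**
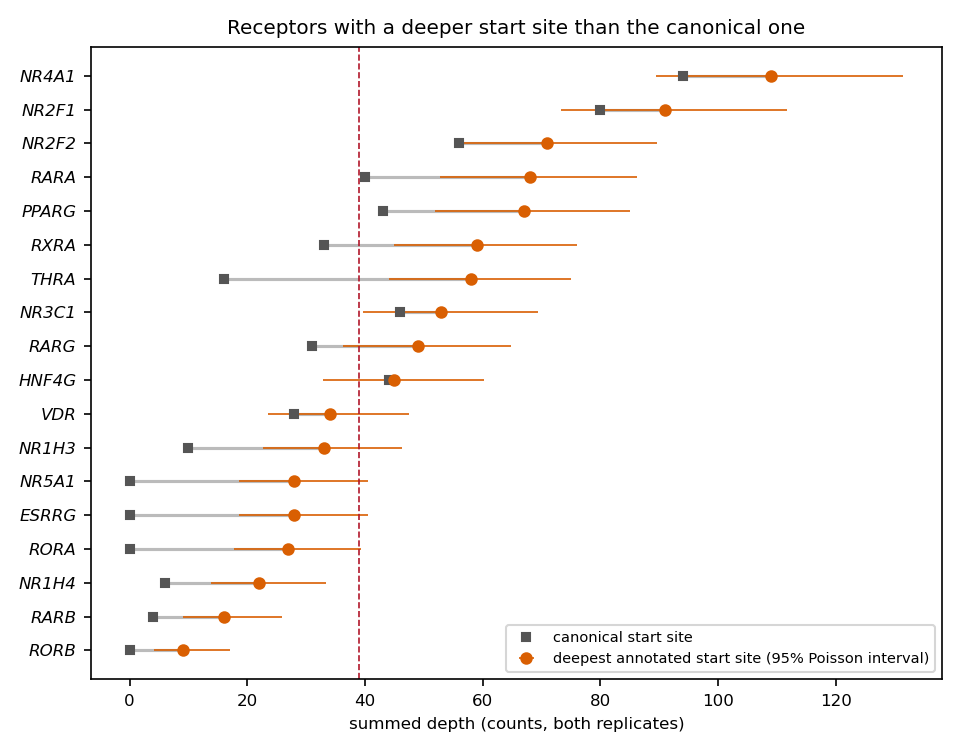
Summed depth in counts at the canonical start (squares) and at the deepest annotated start (circles, with exact Poisson 95% intervals as bars) of the 18 receptors in which another start was deeper, with the upper quartile of the canonical promoters at 39 counts as a dashed line. THRA, RXRA and RARG move across it.

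Canonical receptor promoters that lie within 1 Mb of each other had no counts with each other, although the NR1D1 promoter was joined with the inner THRA start region, as given above. THRA and NR1D1, 37.6 kb apart, had 0 counts in both replicates against 0.626 expected, NR1D1 and RARA, 209 kb apart, 0 against 0.383, and THRA and RARA 0 against 0.0725. The pairs NR1D2 with THRB and THRB with RARB also had 0 counts, against 0.0822 and 0.0162, and for NR5A1 and NR6A1 only the latter had an anchor. With expected counts this low, counts of 0 cannot show that these pairs were joined less than expected.

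Coregulators, through which receptors act on transcription, were compared as a group of 18 genes. Their median depth was 28 counts. Those in the upper quartile included NCOA2 with 48 and 52 counts and TBL1XR1 with 18 and 23. The other coactivators of the NCOA family and the corepressor NCOR1 lay between the quartiles, apart from NCOA4, which was low with 5 and 2. PPARGC1A and PPARGC1B, coactivators of energy metabolism, had no anchor and were thus not measured. Strong loops were found for 7 of 18, compared with 29.7% of all promoters, and strong loops of 20 kb or more for 1, TBL1XR1. NCOA2 was thus the coregulator promoter in the depth range of the deepest receptors. Its counts are raw, and no median of other promoters in its region is set beside them.

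Promoter depth moved with anchor width. It rose with the width of the promoter anchors, with a Spearman rho of 0.528 over the 37 receptors with counts and of 0.560 over 16432 promoters, both descriptions across genes. Per kb of anchor, ESR1, HNF4G, NR3C1, NR3C2 and NR4A3 were no longer in the upper quartile, and NR0B2, NR1H2 and NR2C1 entered it. The marker lists of cell types overlapped in depth. The epithelial keratins KRT8 and KRT18 had 113 and 124 summed counts and the intestinal factor CDX2 had 50, but 9 markers of colon epithelium had a median of 28 counts and a range of 14 to 124, against a median of 20 and a range of 5 to 65 for 9 of the 10 listed markers of other cell types, the remaining one being unmatched in the annotation. MYH6, a cardiac myosin gene, was among the deep promoters with 28 and 37 counts, and none of these 18 markers was at 0. The part of anchor width in the depth of the receptors was not tested.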

How the data were processed

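H3K27ac HiChIP of HCT116 cells was measured in 2 replicates of 1 condition. The authors obtained valid pairs with HiC-Pro and loops with hichipper and deposited, per replicate, tables of how many paired-end tags join each pair of anchors within a chromosome of hg19, as raw counts without normalization. Tool versions, the source of the anchors and distance limits are not given in the sources used here. Same-anchor counts and counts between anchors of one promoter were left out of the depth.

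Canonical transcripts were taken from GENCODE release 44 on hg19, and positions are counted from 1. Replicate counts were summed and are also given singly. Expected counts came from 60 log-spaced classes of distance and from balanced anchor weights (20 rounds), each pair's own count being removed from its anchors (offset 0.5). In simulated counts of chromosome 1, the median expectation of raised pairs was 0.859 to 0.919 times the true one, so ratios of such pairs are overstated. The size of this bias was not measured for the receptor loops, whose ratios fell further in some cases with the own count kept. In simulated replicate shares, 118 of 200 promoters shifted 3-fold were called. Sequences were read from the genome of the same build. 1 coregulator and 1 promoter sequence are not reported here. Receptors given in full were the 10 deepest, those at class borders, those of low depth, pairs within 1 Mb, and the strongest and long loops. The receptors and lists were chosen with earlier results of these data known. Alternatives changed the distance limit, promoter width, start sites, minimum count, thresholds, the expectation and the replicates, of which each was left out once. Computation was done in Python 3.11.15, numpy 2.4.6, scipy 1.17.1, numba 0.67.0 and matplotlib 3.10.9.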

Additional observations from a re-analysis of the deposited data

How the results depend on the processing

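The number of receptors with a deep promoter stayed within 1.5 times the 15 reported, at 11 to 18, under every distance limit, promoter width, choice of start site, minimum count, depth per kb, depth over the regional median and either replicate left out, and fell to 7 with the threshold raised to the 90th percentile. Over the regional median it was 11 of 44, no larger a share than the 25.01% of all promoters. Strong loops depended on the threshold, with 5 receptors at a summed count of at least 10, 3 at a count of at least 5 in each replicate, and 4 to 8 with 1 replicate left out. The shares of all promoters were 5.75%, 3.54% and 8.02% to 11.1%. For strong loops of at least 20 kb these numbers were 1, 0 and 0 to 2, against 7, and 11 with all start sites. The shares of all promoters were then 0.969%, 0.570% and 1.58% to 2.70%, against 9.75%, and 11.5% with all start sites. Each of these follows from its construction, as fewer counts or more anchors enter. The median depth of 15.5 counts per replicate was 13.25 at 500 kb, 17 at 2 Mb, 12.25 with promoters of ± 1 kb, 8 with the anchor that holds the start (8.5 over all promoters, so that the receptors then lay below them, against 12 in the reported setting), 17 with all starts, 4.5 with counts of at least 2, and 11.5 with anchors 20 kb or more away. Loops above expectation numbered 15 with distance alone (5322 over all pairs), against 0 otherwise, and 1 receptor differed between replicates without adjustment. No paired analysis was possible because the data hold 1 group. The depth limits all single loops, since most anchor pairs of these promoters had a single count.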

Other observations

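Base composition moved with the absence of anchors in the genome as a whole. Among promoters in the lowest class of GC content within 5 kb, 24.3% had no anchor, compared with 10.2% in the highest. The 7 receptors without an anchor did not gather in one class, with 1, 1, 2, 2 and 1 of them from the lowest to the highest. Depth had a Spearman rho with this GC content of 0.435 over the 37 receptors with counts and of 0.209 over 16432 promoters, given as descriptions across genes.

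Most receptor pairs had counts in 1 replicate only, as 155 of 1053 were found in both. The pairs named here were picked after their values were seen. NR4A2 was joined with 156253085–156258029 at 940 kb by 4 counts in replicate 1 and 0 in replicate 2 (ratio to the expected count 13.0, exact Poisson 95% interval 3.55 to 33.4). NR1D1 was joined with the promoter of RAPGEFL1 at 74.5 kb by 0 and 4 (ratio 5.07, 1.38 to 13.0). NR2E1 had 0 and 3 counts with an anchor in its own gene at 11.4 kb (ratio 6.04, 1.25 to 17.6).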
